A study of Mus musculus with 8 samples.

Results

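The genes described here encode the enzymes that cut the extracellular matrix and the proteins that hold them in check. They are all rows of the deposited count table whose gene symbol is Mmp, Adamts or Adamtsl followed by a number (Mmp numbers may carry a letter), or Timp1 to Timp4. The rule found 51 of 55353 rows: 23 Mmp, 19 Adamts, 5 Adamtsl and 4 Timp genes. Of these, 30 had enough counts to be tested among 13992 genes, namely 12 Mmp, 10 Adamts, 5 Adamtsl and 3 Timp genes.

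Matrix metalloproteinases (MMPs) are zinc enzymes, secreted or tethered to the cell surface, that are made as inactive precursors and cut collagens, elastin, proteoglycans and other matrix proteins. ADAMTS proteases are secreted enzymes whose thrombospondin repeats bind matrix. Some trim procollagen and others cut proteoglycans such as aggrecan and versican, while the ADAMTS-like (Adamtsl) proteins share their layout but lack the protease domain. Tissue inhibitors of metalloproteinases (TIMPs) block the active site of these enzymes. In the artery wall the balance of proteases and inhibitors is known for its part in matrix turnover and in the movement of smooth muscle cells.

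The data are polyA-enriched RNA sequencing of primary mouse vascular smooth muscle cells labelled as from aorta, in 8 libraries. The groups were E12 KO, E12 WT, E47 KO and E47 WT, with 2 libraries each. E12 and E47 are splice forms of Tcf3, basic helix-loop-helix transcription factors that bind DNA at E-boxes (CANNTG). All cells had been frozen and were revived in culture dishes before lysis, and no treatment is given. The sources used here do not give the strain, the age and sex of the animals, how each allele was made or how many animals stand behind each genotype. The 2 libraries of a genotype are described as independent extractions, with no word on separate cultures or mice. Each p-value below thus sets a difference between genotypes against the spread between extractions, which may have technical reasons only. A genotype may be represented by 1 cell population.

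Library totals ran between 13909230 and 27517374 counts, and the libraries of a genotype differed by more than sampling noise in every genotype. The chi-square per degree of freedom was 5.19 in E12 KO, 14.25 in E12 WT, 5.06 in E47 KO and 4.84 in E47 WT. It was thus highest in E12 WT, while all genotypes share 1 fit. Levels are in CPM, counts relative to the scaled library total. The limit that a count of 0 allows, 3 counts in a library, corresponded to 0.117 to 0.224 CPM. Tcf3, counted over both splice forms, was at 145 and 143 CPM in E12 KO, 109 and 107 CPM in E12 WT, 128 and 128 CPM in E47 KO and 94.5 and 93.7 CPM in E47 WT, so a gene count does not check which form was removed. Of the smooth muscle markers, Acta2 was at 1626 to 3693 CPM in all libraries, while Myh11 was at 2.03 to 8.82 CPM in E12 KO, E12 WT and E47 KO libraries and at 97.0 and 99.5 CPM in E47 WT libraries. Summed over 8 smooth muscle markers, the level was 1807 to 1836 CPM in E12 KO, 2108 to 2165 CPM in E12 WT, 2352 to 2390.5 CPM in E47 KO and 4209 to 4463 CPM in E47 WT. The summed level of 8 endothelial markers was 4.14 to 10.1 CPM in the 6 libraries of E12 KO, E12 WT and E47 KO and 643 to 707 CPM in E47 WT libraries. The summed level of 6 mesothelial markers was 689 to 700.04 CPM in E12 KO, 1070 to 1170 CPM in E12 WT, 334 to 354 CPM in E47 KO and 86.5 to 89.1 CPM in E47 WT, where Wt1 was at 0. Adventitial fibroblast markers summed to 91.6 to 114 CPM in E12 KO, 66.6 to 70.6 CPM in E12 WT, 122 to 133 CPM in E47 KO and 112 to 117 CPM in E47 WT. The close E47 sums held different genes: Dcn was at 90.3 and 98.9 CPM in E47 KO and 2.15 and 1.95 CPM in E47 WT, and Cd34 at 18.1 and 18.1 CPM in E47 KO and 95.1 and 91.6 CPM in E47 WT. The summed level of 6 macrophage markers was 11.3 to 16.4 CPM, with Ptprc and Adgre1 at 0 to 0.149 CPM. Lyz2 was at 0.0601 to 2.03 CPM in those 6 libraries and 12.9 and 10.8 CPM in E47 WT, while Cd14 was at 6.13 to 10.9 CPM in those 6 and 1.15 and 1.40 CPM in E47 WT. Of the neutrophil markers, 4 of 5 were at 0 in all 8 libraries.

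Per kb of exon, inhibitor transcripts outnumbered metalloproteinase transcripts in every genotype. Timp2 was the most abundant member in all 4 genotypes, with a mean level of 477 CPM per kb in E12 KO, 857 in E12 WT, 764 in E47 KO and 712 in E47 WT. Timp3 was the second most abundant, at 135 CPM per kb in E12 KO, 314 in E12 WT, 513 in E47 KO and 271 in E47 WT. Mmp2, the gelatinase that cuts denatured collagen and basement membrane collagen, and Mmp14, the membrane-anchored enzyme that activates pro-MMP2, made up most of the metalloproteinase transcripts. Their joint share of the summed Mmp level was 76.7% in E12 KO, 58.4% in E12 WT, 80.0% in E47 KO and 80.2% in E47 WT. In all, 13 members reached 10 CPM per kb in every genotype: Timp1, Timp2, Timp3, Mmp2, Mmp11, Mmp14, Adamts1, Adamts2, Adamts5, Adamts10, Adamtsl3, Adamtsl4 and Adamtsl5.

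**Figure D1:**
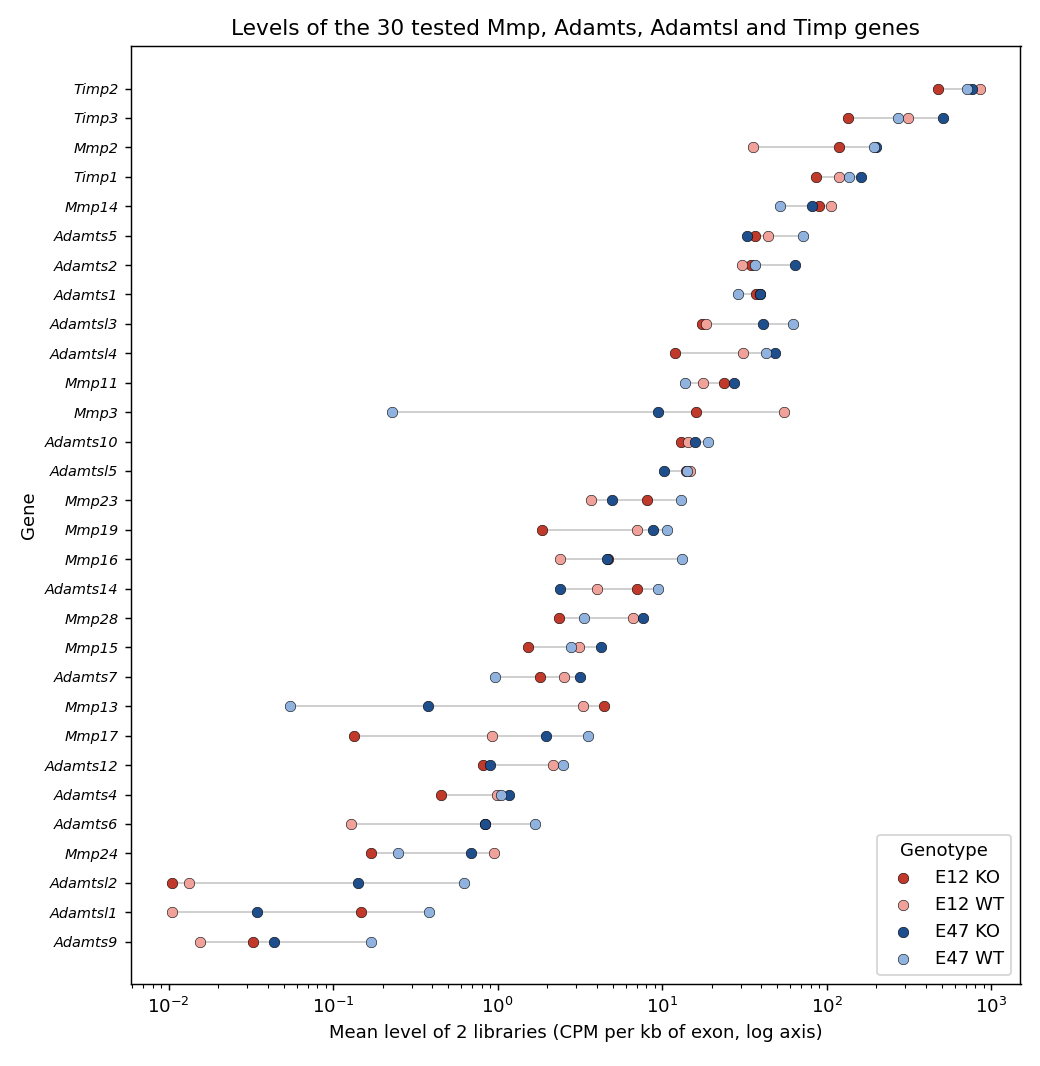
Mean level of each of the 30 tested genes in CPM per kb of exon (horizontal log axis), with 1 point per genotype, each the mean of 2 libraries, and genes ordered from high to low down the page. Timp2 lies furthest right (477 to 857 CPM per kb), and Mmp3 spans the widest range among genes that reach 10 CPM per kb.

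In E12 KO cells the tested members were more often lower than higher relative to E12 WT. Of the 30, 15 fell and 8 rose past the test, and 7 did not pass (edgeR quasi-likelihood test, Benjamini-Hochberg adjusted p under 0.05). That is 76.7% of the members, against 46.4% of all genes tested, and over all genes the shares were 21.9% higher and 24.5% lower. At least 2-fold changes were seen in 4 members that rose and 10 that fell, where 3.83% and 8.11% of all genes passed the same limits. The median log2 change of the members was -0.26, against -0.01 over all genes tested. The rises were led by Adamtsl1, Adamts6, Mmp2 and Mmp23, and the falls by Mmp17, Mmp24, Mmp19 and Mmp3. In the same contrast, 4 of 5 tested mesothelial markers fell and 1 rose, and 5 of 8 smooth muscle markers fell and 2 rose. Of 6 adventitial fibroblast markers, 4 rose (among them Pdgfra, by 3.02, and Lum, by 4.22 on the log2 scale) and 1 fell, and 2 of 8 endothelial markers fell. Of 4 tested macrophage markers, 3 fell and 1 rose. The part of these cell types in the changes of the members was not tested. In bulk RNA, fewer cells of a type and less RNA per cell cannot be told apart.

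In E47 KO cells, 13 members rose and 14 fell relative to E47 WT, and 3 did not pass the test. This was 90% of the members, against 55.2% of all genes tested, of which 27.7% were higher and 27.5% lower. At least 2-fold changes were seen in 6 members that rose and 9 that fell, against 7.7% and 7.19% of all genes. The median log2 change was 0.07 in the members and 0.01 over all genes. Mmp3, Mmp13, Adamts7, Mmp24, Mmp28 and Mmp11 rose by 2-fold or more, and Adamtsl1, Adamtsl2, Adamts9, Adamts14 and Mmp16 were among those that fell. All 8 endothelial markers fell in E47 KO (Pecam1 was at 0.572 and 0.535 CPM in E47 KO and 211 and 194 CPM in E47 WT), 7 of 8 smooth muscle markers fell and 1 rose, and all 5 tested mesothelial markers rose. Of 6 adventitial fibroblast markers, 3 rose (among them Dcn, by 5.54, and Dpt, by 5.36 on the log2 scale) and 2 fell (Cd34 with -2.36 and Pdgfra with -0.71), and of 4 tested macrophage markers 2 fell (among them Lyz2, -2.71) and 1 rose (Cd14, 2.62). Their part in the changes of the members was not tested.

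Of the 30 tested members, 6 reached the filter level of 0.631 CPM in both libraries of some genotypes only. Adamts9 did so in E47 WT alone, Adamtsl1 in E12 KO and E47 WT, Adamtsl2 in E47 KO and E47 WT, Mmp3 and Mmp13 in all but E47 WT, and Mmp24 in all but E12 KO. Such a gene entered the test through the genotypes where it is high, so the counts of members above and below describe those that passed and are no measure of all 51.

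All 3 tested inhibitors fell in E12 KO, while Timp1 and Timp3 rose in E47 KO, and Timp3 moved most in both. Timp3, which stays bound to matrix and also inhibits several ADAMTS enzymes, was at 1069 and 1131 CPM in E12 KO and 2474 and 2639 CPM in E12 WT. It was at 4436 and 3924 CPM in E47 KO and 2089 and 2319.9 CPM in E47 WT. No library of a knockout overlapped its wild type, and both E12 KO libraries lay below all others while both E47 KO libraries lay above all others. With 2 libraries in each genotype, lack of overlap was common. It was seen in 71.3% of all genes tested in the E12 pair and 77.6% in the E47 pair. Among the members the shares were 80.0% and 93.3%. The log2 change of Timp3 was -1.22 ± 0.0793 (SE) in E12 KO (edgeR adjusted p = 1.13e-08) and 0.92 ± 0.0787 in E47 KO (adjusted p = 1.43e-07). Here and below, the SE is the log2 change divided by the square root of the F value of the edgeR test. Where a genotype holds few counts, this SE can understate counting error. The difference between these changes was -2.14 ± 0.112 (adjusted p = 7.65e-10). Of the exon length of Timp3, 21.3% overlaps Syn3 on the other strand, and since strand was not kept its level carries that uncertainty.

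Timp2, which inhibits MMPs and also takes part in the activation of pro-MMP2 by MMP14, was at 1898 and 1822 CPM in E12 KO and 3315 and 3363 CPM in E12 WT. In the other pair it was at 2892 and 3058 CPM in E47 KO and 2824 and 2724 CPM in E47 WT. Timp2 fell in E12 KO (log2 change -0.84 ± 0.0649, edgeR adjusted p = 7.02e-08) and did not pass the test in E47 KO (0.10 ± 0.0644, adjusted p = 0.201), and the changes differed by -0.94 ± 0.0914 (adjusted p = 8.02e-07). Timp1, a secreted inhibitor that is induced in injury and inflammation, was at 78.4 and 75.6 CPM in E12 KO and 109 and 101 CPM in E12 WT. It was at 141 and 148 CPM in E47 KO and 126 and 115 CPM in E47 WT. Timp1 fell in E12 KO (-0.45 ± 0.0746, adjusted p = 0.000178) and rose by a small amount in E47 KO (0.26 ± 0.0723, adjusted p = 0.00685), a rise that did not pass without the second E47 WT library (0.19, adjusted p = 0.106) or the second E47 KO library (0.23, adjusted p = 0.0612). Timp4 had 2 counts in E12 KO, 1 in E12 WT, 1 in E47 KO and 4 in E47 WT, too few to compare.

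Summed over the Timp genes, the level was 699 ± 10.8 CPM per kb in E12 KO and 1289 ± 16.6 in E12 WT, and 1440 ± 8.24 in E47 KO and 1119 ± 7.09 in E47 WT (SD, n = 2 each). Timp2 and Timp3 carried 87.6% to 90.8% of these sums. The summed Mmp level moved less, at 272 ± 3.34 CPM per kb in E12 KO and 243 ± 6.06 in E12 WT, and 352 ± 15.8 in E47 KO and 308 ± 3.53 in E47 WT. The ratio of summed Timp to summed Mmp level was 2.57 ± 0.00812 in E12 KO and 5.30 ± 0.200 in E12 WT, and 4.10 ± 0.207 in E47 KO and 3.63 ± 0.0186 in E47 WT. The libraries of E12 KO and E12 WT did not overlap in this ratio, nor did those of E47 KO and E47 WT. These sums describe transcript levels and have no test. The summed Adamts level was 132 ± 4.98 CPM per kb in E12 KO and 138 ± 10.03 in E12 WT, and 161 ± 5.38 in E47 KO and 173 ± 7.90 in E47 WT. The summed Adamtsl level was 43.5 ± 0.298 CPM per kb in E12 KO and 64.2 ± 4.80 in E12 WT, and 100.3 ± 4.21 in E47 KO and 121 ± 2.61 in E47 WT.

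**Figure D2:**
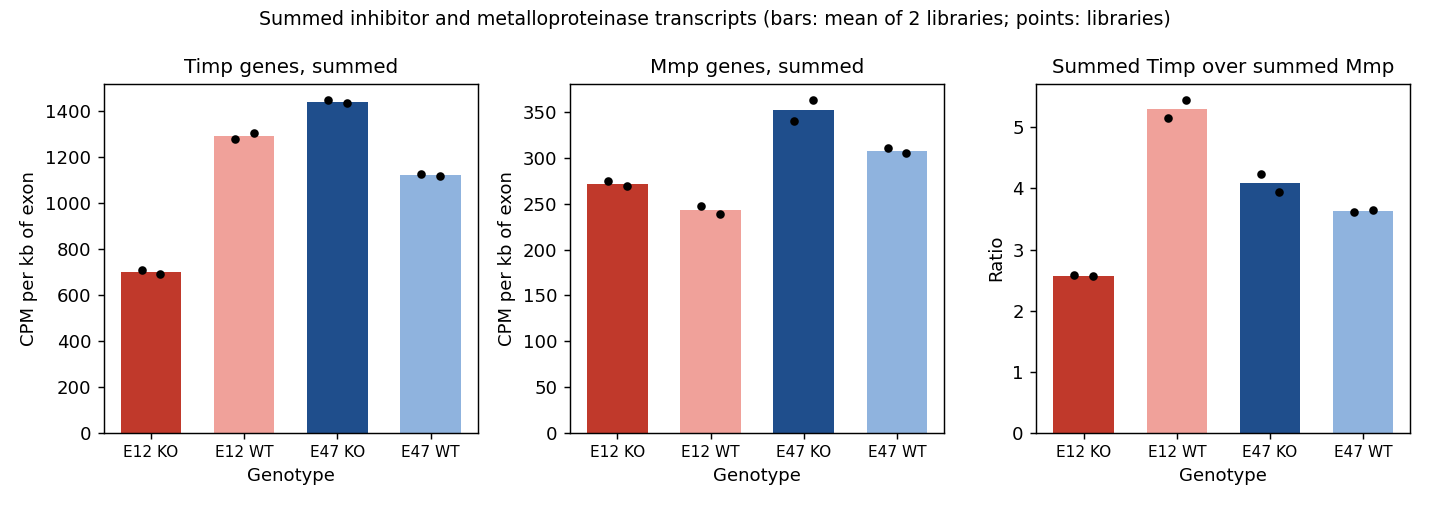
Summed level of the Timp genes and of the Mmp genes in CPM per kb of exon, and the ratio of these sums, by genotype (bars: mean of 2 libraries, points: libraries). The Timp sum is lowest in E12 KO (699 CPM per kb), and the ratio is 2.57 in E12 KO against 5.30 in E12 WT.

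Among the gelatinases, Mmp2 rose in E12 KO and did not pass the test in E47 KO. It was at 398 and 404 CPM in E12 KO and 113 and 126 CPM in E12 WT. In E47 KO it was at 656 and 687 CPM, against 666 and 648 CPM in E47 WT. Both E12 WT libraries lay far below the other 6, and the ranges of E47 KO and E47 WT overlapped. The log2 change was 1.74 ± 0.0724 in E12 KO (edgeR adjusted p = 7.72e-11) and 0.03 ± 0.0686 in E47 KO (adjusted p = 0.722), and the changes differed by 1.71 ± 0.0992 (adjusted p = 2.44e-09). Mmp9, the gelatinase best known from neutrophils and macrophages, was not tested: it had 0 counts in E12 KO, 10 in E12 WT, 13 in E47 KO and 2 in E47 WT.

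Mmp14 went the other way to Mmp2 in the E12 pair. It was at 546 and 524 CPM in E12 KO and 649.5 and 619.9 CPM in E12 WT, and at 466 and 512 CPM in E47 KO and 305 and 316 CPM in E47 WT. Neither knockout overlapped its wild type. Mmp14 fell slightly in E12 KO (log2 change -0.25 ± 0.0684, edgeR adjusted p = 0.00834) and rose in E47 KO (0.66 ± 0.0690, adjusted p = 1.43e-06). The fall in E12 KO did not pass without the second E12 KO library (-0.21, adjusted p = 0.0781). The ratio of Mmp2 to Mmp14 per kb was 1.33 ± 0.0530 in E12 KO and 0.334 ± 0.0376 in E12 WT, and 2.43 ± 0.0819 in E47 KO and 3.75 ± 0.164 in E47 WT (SD, n = 2 each).

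The stromelysin Mmp3, which cuts proteoglycans, fibronectin and other pro-MMPs, and the collagenase Mmp13, which cuts fibrillar collagen, lie in a cluster of 10 Mmp genes on chromosome 9 (7272514 to 7699585, GRCm38, from GENCODE M21). Only these 2 of the cluster were tested. Mmp3 starts at 7445822 and Mmp13 at 7272514, both on the plus strand. Their promoters are shown because both genes were lowest in E47 WT and because both hold an AP-1 motif (TGAGTCA or its reverse complement TGACTCA, in capitals, as are E-boxes, CANNTG). Those of Mmp15 and Mmp23 are examples from the 14 members that moved in opposite directions in E12 KO and E47 KO. Mmp15 went down and up, and Mmp23 up and down. Each line gives the 150 bases before the annotated start, 5′ to 3′, from RefSeq on GRCm38.p6.
Mmp3 promoter (chr9:7445672-7445821, plus strand): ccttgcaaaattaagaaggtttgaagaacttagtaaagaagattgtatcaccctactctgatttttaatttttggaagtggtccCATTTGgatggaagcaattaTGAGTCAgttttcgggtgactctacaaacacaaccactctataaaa
Mmp13 promoter (chr9:7272364-7272513, plus strand): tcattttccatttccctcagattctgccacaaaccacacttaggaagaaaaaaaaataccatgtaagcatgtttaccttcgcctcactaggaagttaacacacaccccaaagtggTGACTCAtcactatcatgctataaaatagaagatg
Mmp15 promoter (chr8:95352146-95352295, plus strand): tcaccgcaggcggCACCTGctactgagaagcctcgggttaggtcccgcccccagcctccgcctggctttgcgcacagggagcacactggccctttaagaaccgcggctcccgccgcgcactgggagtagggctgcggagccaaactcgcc
Mmp23 promoter (chr4:155653385-155653534, minus strand): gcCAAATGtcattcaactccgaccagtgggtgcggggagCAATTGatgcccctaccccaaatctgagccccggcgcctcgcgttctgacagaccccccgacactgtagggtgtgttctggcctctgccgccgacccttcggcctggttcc
Of the 30 tested members, 20 matched a promoter entry. In the 250 bases before the start, 14 of the 20 (70.0%) held CANNTG, which reads the same class of site on both strands, against 66.2% of all 32851 promoters. The core CAGCTG, one form of CANNTG, was in 6 of them (30%, against 13.0% of all), CACCTG on either strand, another form, in 4 (20%, against 17.2%), and TGAGTCA on either strand in 2, Mmp3 and Mmp13 (10%, against 4.46%). TGAGTCA was also before the untested cluster genes Mmp10, Mmp1a, Mmp1b and Mmp7, so it does not set Mmp3 and Mmp13 apart in the cluster. Among members with opposite changes and a promoter entry, Mmp3, Mmp14, Mmp15, Mmp23, Mmp28 and Timp3 held CANNTG in these 250 bases. Adamts14, Adamtsl4, Mmp24 and Timp1 did not. The share of members takes 1 promoter per gene, while that of all takes every entry, of genes tested or not. A match describes the letters only and is neither a binding site nor a cause.

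Mmp3 had the widest spread over the genotypes. It was at 28.9 and 28.8 CPM in E12 KO and 103 and 94.4 CPM in E12 WT. It was at 15.1 and 18.7 CPM in E47 KO and 0.430 and 0.390 CPM in E47 WT, where the libraries held 16 counts in all. No genotype overlapped another. Mmp3 fell in E12 KO (log2 change -1.77 ± 0.0876, edgeR adjusted p = 5.26e-10) and rose in E47 KO (5.35 ± 0.211, adjusted p = 2.03e-11), and the changes differed by -7.13 ± 0.222 (adjusted p = 2.7e-12). With 16 counts in E47 WT, the SE of the rise and of the difference can understate counting error.

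Mmp13 was at 14.3 and 9.49 CPM in E12 KO and 10.02 and 7.70 CPM in E12 WT. It was at 1.14 and 0.869 CPM in E47 KO and 0.215 and 0.0780 CPM in E47 WT, where it had 5 counts in all. The E12 KO and E12 WT libraries overlapped, and the E47 KO and E47 WT libraries did not. The log2 change in E12 KO was 0.43 ± 0.191 (edgeR adjusted p = 0.0775), and it passed the test without the first E12 WT library (0.64, adjusted p = 0.0272), without the second E12 KO library (0.69, adjusted p = 0.00811) and with no filter on low counts (0.45, adjusted p = 0.00796). Mmp13 rose in E47 KO (2.95 ± 0.706, adjusted p = 0.00255), and this rested on few counts: it was 2.21 without the second E47 WT library (adjusted p = 0.0614) and 3.60 without the first (adjusted p = 0.0046). The difference between the changes, -2.51 ± 0.750 (adjusted p = 0.0121), was -1.78 without the second E47 WT library (adjusted p = 0.154), -3.17 without the first (adjusted p = 0.0155) and -2.28 without the first E47 KO library (adjusted p = 0.076).

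Of the other metalloproteinases anchored to the membrane, 2 rose and 3 fell in E12 KO. Mmp16, a transmembrane enzyme, was at 38.4 and 43.1 CPM in E12 KO and 19.97 and 21.5 CPM in E12 WT, and at 43.3 and 37.2 CPM in E47 KO and 108 and 119.8 CPM in E47 WT. Mmp23, an unusual member held in the membrane by its amino end, was at 19.8 and 18.0 CPM in E12 KO and 9.51 and 7.70 CPM in E12 WT, and at 10.8 and 12.3 CPM in E47 KO and 32.2 and 29.01 CPM in E47 WT. Both genes were higher in E12 KO than in E12 WT and lower in E47 KO than in E47 WT, with no overlap. For Mmp16 the log2 change was 0.98 ± 0.103 in E12 KO (edgeR adjusted p = 2.03e-06) and -1.50 ± 0.0903 in E47 KO (adjusted p = 2.83e-09). For Mmp23 it was 1.13 ± 0.127 in E12 KO (adjusted p = 3.64e-06) and -1.40 ± 0.111 in E47 KO (adjusted p = 6.46e-08).

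The transmembrane enzymes Mmp15 and Mmp24 showed the reverse. Mmp15 was at 8.59 and 7.81 CPM in E12 KO and 16.4 and 17.2 CPM in E12 WT, and at 23.6 and 22.1 CPM in E47 KO and 14.5 and 15.7 CPM in E47 WT. Mmp24 was at 0.579 and 1.02 CPM in E12 KO and 4.47 and 4.48 CPM in E12 WT, and at 3.01 and 3.48 CPM in E47 KO and 1.43 and 0.897 CPM in E47 WT. Neither gene overlapped between a knockout and its wild type. Mmp15 fell by 1.03 ± 0.112 on the log2 scale in E12 KO (edgeR adjusted p = 2.82e-06) and rose by 0.60 ± 0.0959 in E47 KO (adjusted p = 9.9e-05). Mmp24 fell by 2.51 ± 0.300 in E12 KO (adjusted p = 7.33e-06) and rose by 1.55 ± 0.288 in E47 KO (adjusted p = 0.000351). Of its exon length, 13.6% overlaps BC029722 on the other strand. Mmp17, which is held by a lipid anchor, was at 1.11 and 0.661 CPM in E12 KO and 5.68 and 6.50 CPM in E12 WT, and at 13.3 and 12.9 CPM in E47 KO and 23.8 and 22.9 CPM in E47 WT. It fell in both, with a log2 change of -2.73 ± 0.226 in E12 KO (adjusted p = 1.57e-07) and -0.83 ± 0.109 in E47 KO (adjusted p = 1.44e-05), and the changes differed by -1.90 ± 0.261 (adjusted p = 2.95e-05).

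The secreted enzymes Mmp28, Mmp19 and Mmp11 each followed a different course. Mmp28, also called epilysin, was at 7.92 and 10.3 CPM in E12 KO and 24.6 and 27.0 CPM in E12 WT, and at 30.5 and 28.8 CPM in E47 KO and 13.5 and 12.5 CPM in E47 WT. It fell in E12 KO (log2 change -1.52 ± 0.119, edgeR adjusted p = 8.93e-08) and rose in E47 KO (1.20 ± 0.109, adjusted p = 2.94e-07), and 12% of its exon length overlaps 1700020L24Rik on the other strand. Mmp19, which cuts basement membrane proteins, was at 7.34 and 5.77 CPM in E12 KO and 26.7 and 23.1 CPM in E12 WT, and at 27.1 and 34.7 CPM in E47 KO and 37.0 and 38.4 CPM in E47 WT. It fell in E12 KO (-1.92 ± 0.147, adjusted p = 7e-08). Its smaller fall in E47 KO (-0.30 ± 0.113, adjusted p = 0.0352) did not pass with DESeq2 (-0.31, adjusted p = 0.0738), without the first E47 WT library (-0.32, adjusted p = 0.0674), without the second (-0.27, adjusted p = 0.161) or without the first E47 KO library (-0.12, adjusted p = 0.426). Of the exon length of Mmp19, 28.3% overlaps Gm47093 and Tmem198b on the other strand, so its values are uncertain. Mmp11, a stromelysin that is activated inside the cell by furin, was at 66.9 and 64.5 CPM in E12 KO and 51.3 and 47.5 CPM in E12 WT, and at 73.5 and 79.5 CPM in E47 KO and 40.3 and 36.3 CPM in E47 WT. It rose in both, by 0.41 ± 0.0797 in E12 KO (adjusted p = 0.000667) and by 1.0 ± 0.0799 in E47 KO (adjusted p = 6.57e-08).

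**Figure D3:**
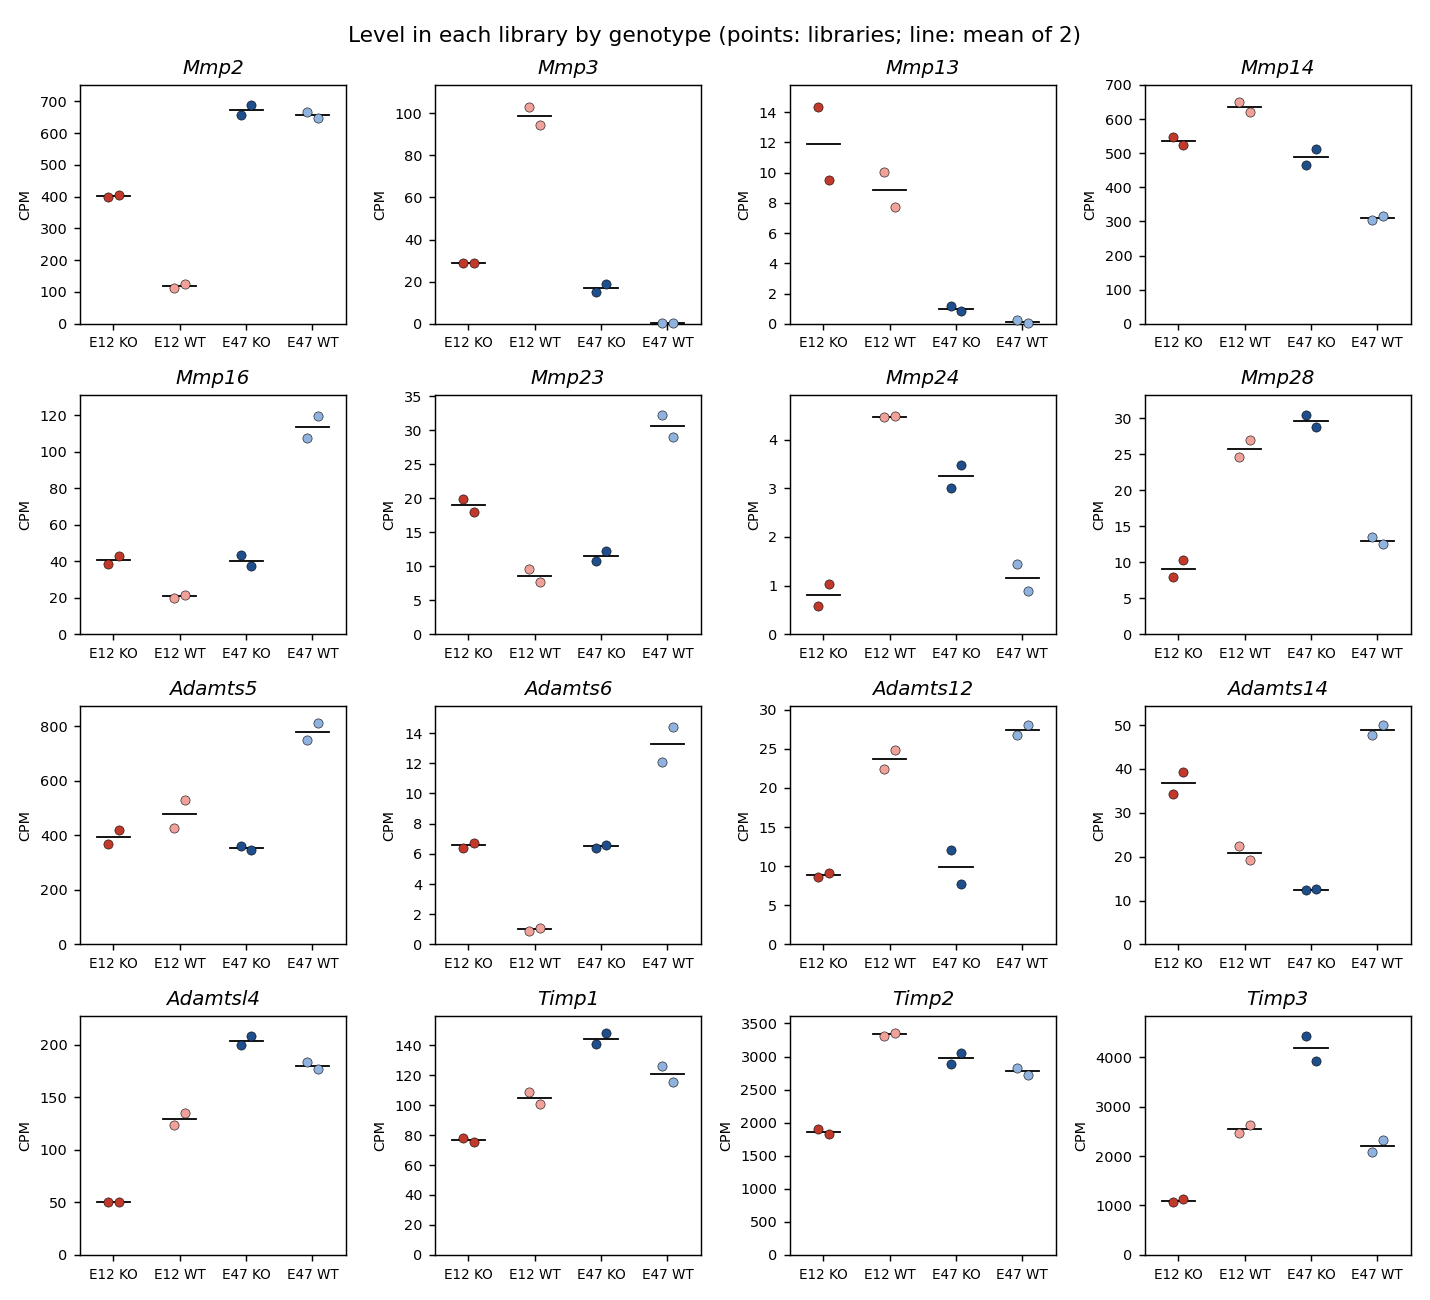
Level in CPM of 16 members in each of the 8 libraries, with 1 panel per gene, each with its own vertical axis from 0, and genotypes along the horizontal axis (points: libraries, line: mean of 2). Mmp2 is lowest in both E12 WT libraries (113 and 126 CPM), and Mmp3 is highest there (103 and 94.4 CPM).

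Of the proteoglycan-cutting ADAMTS enzymes, Adamts5 fell in E47 KO and Adamts4 in E12 KO. Adamts5, a principal aggrecan-cutting enzyme in mice, was at 369 and 419 CPM in E12 KO and 426 and 528 CPM in E12 WT, and at 361 and 344 CPM in E47 KO and 749.7 and 810.0 CPM in E47 WT. Both E47 WT libraries stood above all others. The log2 change in E47 KO was -1.15 ± 0.0942 (edgeR adjusted p = 9.57e-08). In E12 KO it was -0.28 ± 0.0934 (adjusted p = 0.0249), which did not pass without the first E12 KO library (-0.18, adjusted p = 0.221), without the second E12 WT library (-0.11, adjusted p = 0.326) or with E12 libraries alone (-0.27, adjusted p = 0.0529). Adamts4, its close relative, was at 2.03 and 2.34 CPM in E12 KO and 3.83 and 5.76 CPM in E12 WT, and at 4.73 and 6.48 CPM in E47 KO and 4.66 and 5.38 CPM in E47 WT. It fell in E12 KO (-1.12 ± 0.255, adjusted p = 0.00217), and its E47 libraries overlapped (0.12, adjusted p = 0.647). Adamts9, which cuts versican, was at 0.386 and 0.601 CPM in E12 KO and 0.319 and 0.149 CPM in E12 WT, and at 0.572 and 0.735 CPM in E47 KO and 2.44 and 2.65 CPM in E47 WT. It fell in E47 KO (-1.98 ± 0.326, adjusted p = 0.000121), it did not pass in E12 KO (0.98, adjusted p = 0.194), and 12% of its exon length overlaps other genes on the other strand. Adamts1, also a versican-cutting enzyme, rose in E47 KO (0.45 ± 0.0766, adjusted p = 0.000154) and did not pass in E12 KO (-0.07, adjusted p = 0.454).

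The procollagen-trimming enzymes Adamts2 and Adamts14, which cut the amino propeptides off fibrillar procollagens, rose together in E12 KO and split in E47 KO. Adamts14 was at 34.2 and 39.3 CPM in E12 KO and 22.4 and 19.3 CPM in E12 WT, and at 12.4 and 12.6 CPM in E47 KO and 47.8 and 49.9 CPM in E47 WT. It rose in E12 KO (log2 change 0.81 ± 0.0970, edgeR adjusted p = 7.31e-06) and fell in E47 KO (-1.97 ± 0.0998, adjusted p = 3.71e-10). Adamts2 was at 319.7 and 327 CPM in E12 KO and 276 and 295 CPM in E12 WT, and at 581 and 621 CPM in E47 KO and 338 and 347 CPM in E47 WT. It rose in E47 KO (0.81 ± 0.0668, adjusted p = 9.57e-08). Its rise in E12 KO was small (0.18 ± 0.0670, adjusted p = 0.0404) and did not pass with DESeq2 (0.17, adjusted p = 0.0598), with E12 libraries alone (0.19, adjusted p = 0.0625) or without both E47 WT libraries (0.18, adjusted p = 0.056). It also did not pass without the first E12 WT library (0.13, adjusted p = 0.226), the first E12 KO library (0.20, adjusted p = 0.0822), the second E12 KO library (0.17, adjusted p = 0.141), or the first or second E47 WT library (0.18 each, adjusted p = 0.0541 and 0.0542). Adamts3, the remaining enzyme of this class, had 11 counts over all libraries.

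Adamts7 and Adamts12, a related pair known to cut cartilage oligomeric matrix protein (Comp), parted in E47 KO. Adamts7 was at 12.02 and 10.6 CPM in E12 KO and 16.0 and 16.1 CPM in E12 WT, and at 17.7 and 22.1 CPM in E47 KO and 5.37 and 6.78 CPM in E47 WT. It rose in E47 KO (log2 change 1.66 ± 0.141, edgeR adjusted p = 1.31e-07). Its fall in E12 KO (-0.49 ± 0.135, adjusted p = 0.0076) did not pass without the second E12 KO library (-0.41, adjusted p = 0.0599). Adamts12 was at 8.64 and 9.13 CPM in E12 KO and 22.5 and 24.9 CPM in E12 WT, and at 12.01 and 7.69 CPM in E47 KO and 26.8 and 28.03 CPM in E47 WT. It fell in both, with a log2 change of -1.41 ± 0.148 in E12 KO (adjusted p = 1.82e-06) and -1.45 ± 0.141 in E47 KO (adjusted p = 5.75e-07). The changes of Adamts12 differed by 0.04 ± 0.208 (adjusted p = 0.89), and all 4 knockout libraries lay below all 4 wild-type libraries.

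Adamts6 and Adamts10, a related pair known for acting on fibrillin microfibrils, were unlike in size of change. Adamts6 was at 6.42 and 6.73 CPM in E12 KO and 0.893 and 1.12 CPM in E12 WT, and at 6.39 and 6.62 CPM in E47 KO and 12.1 and 14.4 CPM in E47 WT. The E12 KO and E47 KO libraries overlapped each other and lay between those of E12 WT and E47 WT. Adamts6 rose in E12 KO (log2 change 2.71 ± 0.229, edgeR adjusted p = 1.98e-07) and fell in E47 KO (-1.05 ± 0.134, adjusted p = 1.12e-05). Adamts10, at 101 to 166 CPM in all libraries, did not pass in E12 KO (-0.14, adjusted p = 0.211), except without the second E12 WT library (-0.23, adjusted p = 0.0417). In E47 KO it fell (-0.26, adjusted p = 0.0157), and did not pass without the second E47 WT library (-0.18, adjusted p = 0.18), the first E47 KO library (-0.25, adjusted p = 0.0917) or the second (-0.28, adjusted p = 0.061).

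Among the ADAMTS-like genes, Adamtsl4 fell in E12 KO, and Adamtsl1 and Adamtsl2 fell most in E47 KO. Adamtsl4, which binds fibrillin and is mutated in human ectopia lentis, was at 50.01 and 50.3 CPM in E12 KO and 124 and 135 CPM in E12 WT, and at 199 and 208 CPM in E47 KO and 183 and 177 CPM in E47 WT. It fell in E12 KO (log2 change -1.37 ± 0.0721, edgeR adjusted p = 1.02e-09). Its rise in E47 KO was small (0.18 ± 0.0672, adjusted p = 0.0336) and did not pass with DESeq2 (0.16, adjusted p = 0.0956), with no filter on low counts (0.19, adjusted p = 0.052) or without any 1 of the 4 E47 libraries. Leaving these out gave 0.20 (first E47 WT library, adjusted p = 0.0681), 0.15 (second E47 WT library, adjusted p = 0.182), 0.21 (first E47 KO library, adjusted p = 0.058) and 0.15 (second E47 KO library, adjusted p = 0.162). Adamtsl3 and Adamtsl5 fell in E47 KO (-0.60 and -0.47) and did not pass in E12 KO (-0.08 each, adjusted p = 0.536 each), although Adamtsl3 passed without the first E12 WT library (-0.25, adjusted p = 0.0334).

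Adamtsl1, also called punctin, was a rare transcript. It was at 1.30 and 2.46 CPM in E12 KO and 0.191 and 0.0747 CPM in E12 WT, where it had 4 counts in all. It was at 0.208 and 0.668 CPM in E47 KO, 14 counts in all, and 4.80 and 4.95 CPM in E47 WT. Neither knockout overlapped its wild type. Adamtsl1 rose in E12 KO (log2 change 3.67 ± 0.634, edgeR adjusted p = 0.000245), by 4.49 without the first E12 WT library. It fell in E47 KO (-3.55 ± 0.395, adjusted p = 2.58e-06), with -2.86 without the first E47 KO library and -4.51 without the second. At such low counts, these SE values can understate counting error. Adamtsl2, which binds microfibrils and is mutated in human geleophysic dysplasia, had 3 counts in E12 KO and 3 in E12 WT, so no change is given there. In the E47 pair it was at 1.40 and 0.869 CPM in E47 KO and 4.66 and 5.38 CPM in E47 WT, and it fell (-2.12 ± 0.262, adjusted p = 7.88e-06).

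Of the 30 members, 20 passed the test in both knockouts, and 14 of these (70.0%) moved in opposite directions. Over all genes, 4105 passed in both and 1848 of these (45.0%) were opposite. Lower in E12 KO and higher in E47 KO were Timp1, Timp3, Mmp3, Mmp14, Mmp15, Mmp24, Mmp28, Adamts7 and Adamtsl4. Higher in E12 KO and lower in E47 KO were Mmp16, Mmp23, Adamts6, Adamts14 and Adamtsl1. Adamts2 and Mmp11 rose in both, and Mmp17, Mmp19, Adamts5 and Adamts12 fell in both. The E12 KO changes of Adamts2, Adamts5, Adamts7 and Mmp14 did not pass in some of the alternatives given above. Nor did the E47 KO changes of Timp1, Adamtsl4 and Mmp19. The Pearson correlation of the E12 KO and E47 KO log2 changes was -0.478 across the 30 members and 0.0694 across all genes, as a description over genes that share libraries and are not independent. It takes in Adamtsl2, with 3 counts in each E12 genotype, and the large opposite changes of Mmp3 and Adamtsl1. Of the members with opposite changes, Mmp3, Mmp24 and Adamtsl1 reached the filter level in some genotypes only. Neither the correlation nor these counts are thus a measure of the whole family. The E12 KO and E47 KO changes use separate controls, and all 8 libraries share 1 fit. The difference itself passed the test for 27 of the 30 members (10 with the higher change in E12 KO and 17 with the lower), which is 90% against 48.6% of all genes, of which 22.9% were higher and 25.7% lower. At least a 2-fold difference was seen in 7 members that were higher and 11 that were lower, against 6.33% and 11.3% of all genes.

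**Figure D4:**
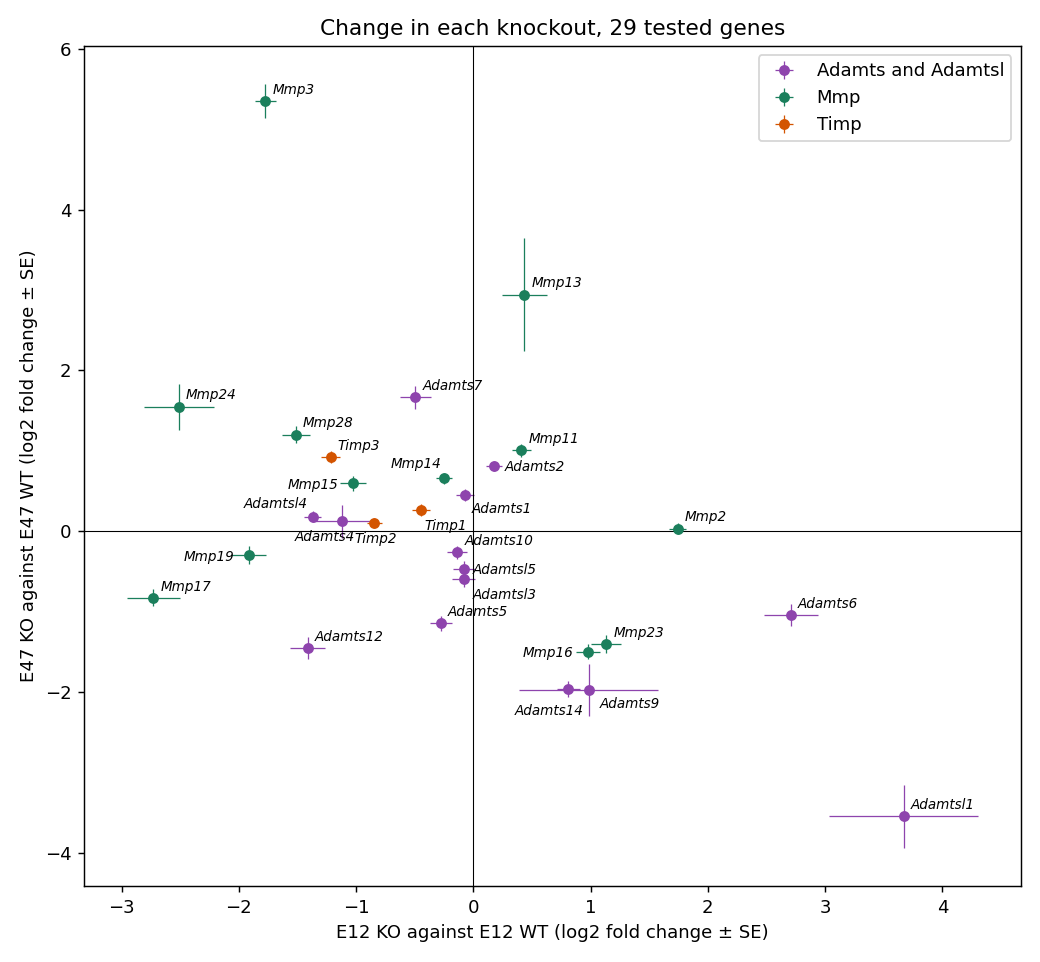
Log2 fold change in E12 KO against E12 WT (horizontal) and in E47 KO against E47 WT (vertical) for 29 tested genes, with SE bars. The SE is the log2 change divided by the square root of the F value of the test and can understate counting error at low counts. Adamtsl2 is left out because it had 3 counts in each E12 genotype. Mmp3 lies at -1.77 and 5.35, Adamtsl1 at 3.67 and -3.55, and Adamts12 at -1.41 and -1.45.

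The wild types also differed from each other in most members. Of the 30 members, 10 were higher and 16 lower in E12 WT than in E47 WT, which is 86.7% against 55.4% of all genes, of which 27.8% were higher and 27.6% lower. Differences of 2-fold or more were seen in 5 members that were higher and 10 that were lower, against 8.43% and 9.41% of all genes. Mmp3 and Mmp13 reached the filter level in E12 WT and not in E47 WT, and Adamts9, Adamtsl1 and Adamtsl2 in E47 WT and not in E12 WT. Such genes entered the test through genotypes where they are high, so these shares describe the tested members and not the whole family. This contrast shares its libraries with both knockout comparisons, so the values are given side by side and not as separate evidence. For Mmp3 the log2 difference of E12 WT over E47 WT was 7.91 ± 0.166 (edgeR adjusted p = 1.4e-14). With 16 counts in E47 WT, this SE can understate counting error. For Mmp13 the log2 difference was 6.06 (adjusted p = 1.47e-08), or 5.33 and 6.72 without the second or the first E47 WT library. For Mmp2 it was -2.46 (adjusted p = 5.34e-13), for Mmp16 -2.46, for Adamts6 -3.74 and for Mmp14 1.03. Timp3 (0.21, adjusted p = 0.0304) and Timp1 (-0.20, adjusted p = 0.031) differed little. Neither passed without the second E12 WT library (Timp3 0.17, adjusted p = 0.138, Timp1 -0.15, adjusted p = 0.163) or the first E47 WT library (Timp3 0.14, adjusted p = 0.239, Timp1 -0.13, adjusted p = 0.234). In 9 members the 4 libraries of E12 KO and E47 WT stood on one side of the 4 libraries of E12 WT and E47 KO. They were above in Mmp23, Adamts14 and Adamtsl1 (10% of the members, against 6.2% of all genes) and below in Timp2, Timp3, Mmp15, Mmp24, Mmp28 and Adamts7 (20%, against 7.95%). Of these, Adamtsl1 reached the filter level in E12 KO and E47 WT only, and Mmp24 in all genotypes but E12 KO. Both thus entered the test through genotypes where they are high, and the shares are no measure of the whole family.

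Transcripts for proteins that activate, anchor, clear or inhibit these enzymes were mostly lower in both knockouts, among the genes listed and tested. This list and those of the next paragraph were chosen with earlier results of these data known, so their shares are a description only. Of 7 tested genes among 11 listed, 6 fell in E12 KO, with 1 not past the test (85.7% called, against 46.4% of all genes), and in E47 KO 6 fell and 1 rose (100% called, against 55.2% of all genes). The median log2 change was -1.14 in E12 KO and -0.82 in E47 KO, against -0.01 and 0.01 over all genes. Reck, a membrane-anchored inhibitor of several MMPs, was at 55.0 and 62.7 CPM in E12 KO and 129 and 130 CPM in E12 WT, and at 151 and 154 CPM in E47 KO and 622 and 602 CPM in E47 WT (log2 change -1.14 and -2.0). The proprotein convertases Pcsk6 (-2.12 in E12 KO and -2.46 in E47 KO) and Pcsk5 (-1.89 and -3.18) fell in both, as did furin, the convertase that activates membrane-type MMPs (Furin, -0.24 and -0.72). The fall of Furin in E12 KO did not pass without the second E12 WT library (-0.20, edgeR adjusted p = 0.0594) or the first E12 KO library (-0.20, adjusted p = 0.0884). Spock2, a secreted proteoglycan of the testican family, fell by 4.43 in E12 KO and rose by 1.08 in E47 KO, a rise that did not pass without the second E47 WT library (1.07, adjusted p = 0.08) or the first E47 KO library (1.03, adjusted p = 0.0629).

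The related metalloproteinases and their cofactors showed no common direction. Of 13 tested among 16 listed, 4 rose and 6 fell in E12 KO, and 4 rose and 5 fell in E47 KO, with medians of -0.02 and -0.05. The shares called were 76.9% in E12 KO, against 46.4% of all genes, and 69.2% in E47 KO, against 55.2%. In E47 KO, 2 rose without the first E47 WT library or without the second E47 KO library, and 3 fell without the second E47 WT library or without the second E47 KO library. Adam12, a disintegrin metalloproteinase, changed by 2.13 in E12 KO, and Tll1, a procollagen C-proteinase, by 1.44 in E12 KO and -0.59 in E47 KO. In E47 KO the Adam12 change was -0.35 (adjusted p = 0.047), and it did not pass without the first E47 WT library (-0.36, adjusted p = 0.0924), the second E47 WT library (-0.34, adjusted p = 0.161) or the second E47 KO library (-0.16, adjusted p = 0.41), nor with a filter of at least 1 CPM in 4 libraries (-0.36, adjusted p = 0.0512). Pcolce, the enhancer of procollagen C-proteinase, rose in both (0.67 and 1.15), and its relative Pcolce2 fell in both (-1.17 and -1.30). Of 17 tested substrates among 19 listed, 4 rose and 5 fell in E12 KO, and 5 rose and 8 fell in E47 KO. The share called was near that of all genes in E12 KO (52.9%, against 46.4%) and was 76.5%, against 55.2%, in E47 KO. Without the first E47 WT library, 3 rose in E47 KO. Some substrates are also in the marker lists above: Vwf as an endothelial marker, and Dcn and Lum as adventitial fibroblast markers. In E47 KO, Vwf fell (-6.48), and Dcn (5.54) and Lum rose. These changes are thus not separate from those of the markers. The cartilage-type matrix genes Col2a1 (-6.91), Comp (-7.18) and Acan (-3.15) fell in E12 KO. In E47 KO Col2a1 (-1.05) and Acan (-1.62) fell, and Comp did not pass (-0.23, edgeR adjusted p = 0.773). The level of Comp was 0.193 and 0 CPM in E12 KO, against 15.6 and 17.6 CPM in E12 WT. Eln, which encodes elastin, fell in both (-0.89 and -1.88), while Vcan, the versican gene, rose in both (1.39 and 2.67).

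The other 21 members did not pass the filter on low counts and were not tested in the main fit. Mmp7, Mmp20 and Adamts19 had no count in any library, 10 had between 1 and 5 counts over all 8 libraries, and 8 had more. These 8 were Adamts15 (52 counts in all), Mmp25 (41), Mmp27 (27), Mmp9 (25), Mmp10 (18), Adamts3 (11), Adamts17 (9) and Timp4 (8). The counts of Adamts15 were 13 in E12 KO, 6 in E12 WT, 32 in E47 KO and 1 in E47 WT. Those of Mmp25 were 2 in E12 KO, 12 in E12 WT, 19 in E47 KO and 8 in E47 WT. The highest count of any of the 21 in a single library was 22. The collagenases Mmp1a, Mmp1b and Mmp8, the macrophage elastase Mmp12 and the von Willebrand factor-cutting Adamts13 each had 1 to 3 counts over all 8 libraries and were not detectable above counting error at this depth.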

How the data were processed

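RNA of mouse aortic smooth muscle cells was sequenced in 8 unstranded polyA libraries, per the labels' protocols. The submitters' processing notes name FastQC, HISAT, featureCounts and GRCm38 (mm10). The sources used here give no tool versions, settings or annotation. The values deposited by the authors are raw counts per gene symbol, neither scaled nor pooled.

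The members and gene lists were chosen with earlier results of these data known. Counts were fitted with edgeR 4.0.16 in R 4.3.3. The filter on low counts kept 13992 genes, trimmed mean of M values scaling was used, and 1 model of the 4 genotypes over all 8 libraries (4 residual degrees of freedom, common biological coefficient of variation 0.0598) was tested with the quasi-likelihood method. Benjamini-Hochberg adjustment ran over all genes tested, with a threshold of 0.05, and the scripts were tested on simulated data. CPM uses scaled library sizes. Levels between genes are per kb of exon from GENCODE M21. Values in every library are given for members past the test with a change, or a difference between the changes, of 2-fold or more, and for the Timp genes, Mmp2, Mmp9 and Mmp14. Of members with smaller changes, some are given as examples. Alternatives were DESeq2 1.42.0, its size factors (RLE scaling), other filters, fewer groups and each library left out. Limits of 3 counts cover counting error only.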

Additional observations from a re-analysis of the deposited data

Results flagged for a closer look

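For 18 members the change in E12 KO and the change in E47 KO differed past the edgeR test of the difference itself, with a difference of 2-fold or more. Values are the E12 KO log2 change minus the E47 KO log2 change. Positive differences were 7.22 for Adamtsl1, 3.75 for Adamts6, 2.96 for Adamts9, 2.78 for Adamts14, 2.54 for Mmp23, 2.47 for Mmp16 and 1.71 for Mmp2. Negative differences among the metalloproteinases were -7.13 for Mmp3, -4.06 for Mmp24, -2.72 for Mmp28, -2.51 for Mmp13, -1.90 for Mmp17, -1.62 for Mmp15 and -1.62 for Mmp19. The remaining negative differences were -2.16 for Adamts7, -2.14 for Timp3, -1.55 for Adamtsl4 and -1.24 for Adamts4. Adamts9 and Adamtsl1 rested on few counts: the difference for Adamts9 was 3.63 without the first E12 WT library, and that for Adamtsl1 was 8.04 without that library, 6.52 without the first E47 KO library and 8.18 without the second. The difference for Mmp13 was -1.78 without the second E47 WT library and did not pass there.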

How the results depend on the processing

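Every count of members past the test stayed within 1.5 times its value under DESeq2, RLE scaling, no filter, a filter of at least 1 CPM in 4 libraries, only the groups compared, and each library left out. With 1 library left out, members higher and lower numbered 7 to 8 and 13 to 16 in E12 KO, 10 to 13 and 12 to 14 in E47 KO, 9 to 10 and 16 to 17 for the difference, and 9 to 10 and 15 to 16 between the wild types. Among the 30 tested members, each change of direction was in a value not past the test. Adamts4 in E47 KO was -0.10 without the second E47 KO library (range to 0.35), the difference for Adamts12 was -0.03 without the first E12 WT library and -0.22 without the second E47 KO library (range to 0.42), and Adamts4 between the wild types was 0.18 without the first E12 WT library and 0.03 without the second E47 WT library (lowest -0.41). Of members reported with smaller changes, in E12 KO Adamtsl3 was 0.10 without the second E12 WT library and 0.01 without the first E12 KO library, Adamts1 was 0.01 without the second E12 WT library, and Adamtsl5 was 0.06 without the second E12 KO library. Adamtsl2, for which no E12 KO change is given, also turned. The cause was not tested. Leaving out both E47 WT libraries, and the recounts of opposite changes, of the related and marker lists and of the directions of all tested members, were added after seeing the data. Opposite changes numbered 12 to 14 of 16 to 21. Related-list counts moved by over 1.5 times in 10 cases, 9 with 1 library left out, and over all alternatives 5 to 7 and 5 to 6 genes of the activation, anchoring and clearance list fell in E12 KO and E47 KO. Marker counts moved too: under the filter of at least 1 CPM in 4 libraries 3 endothelial markers fell in E47 KO, and 2 adventitial markers rose in E12 KO and 1 in E47 KO; with DESeq2 2 adventitial markers rose in E12 KO. Without the first E12 WT library no macrophage marker passed in E12 KO, and without the second E12 KO library 1 fell. No paired analysis was possible because the labels give no replicate numbers, and those used here follow accession order.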
